A study of Rattus norvegicus with 8 samples.

Results

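Histone deacetylases and DNA methyltransferases were represented by 10 genes of the 35199 gene names on the array, namely the deacetylases Hdac1, Hdac2, Hdac3, Hdac4, Hdac5, Hdac6 and Hdac11 and the methyltransferases Dnmt1, Dnmt3a and Dnmt3b. Their spots were taken by name from the gene column of the scanner files and not by measured value. The gene list itself was chosen with earlier results of these data known. All 10 genes gave a value in every rat. Total RNA came from the dentate gyrus of 8 adult female Sprague-Dawley rats that had all been ovariectomized and had all gone through kainic acid-induced status epilepticus (SE). The 4 COS rats received oil and the 4 CES rats received estradiol (E2). By the sample records, E2 was given as 4 doses of 2 µg at 24 h intervals, 2 before and 2 after SE, kainic acid was given at 16 mg/kg, and pentobarbital ended SE after 5 h. The study's methods give another kainic acid dose, another drug to stop the seizures and another injection schedule. Their account of the animals places tissue collection 24 h after SE. Their account of the arrays places it 2 h after continuous seizures began. The time from SE, or from the last E2 dose, to tissue collection is therefore not settled. Rats without SE were not analysed here, and no value below compares SE with its absence. The tissue was dissected whole, so fewer cells of a type and less RNA per cell cannot be told apart.

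Histone deacetylases remove acetyl groups from lysines of histone tails and of other proteins, and act mostly as repressors of transcription. Class I enzymes (Hdac1, Hdac2, Hdac3) are nuclear and work inside corepressor complexes. Class IIa enzymes (Hdac4, Hdac5) shuttle between nucleus and cytoplasm under the control of calcium-dependent kinases and bind MEF2 factors. Hdac6 is mainly a cytoplasmic deacetylase of tubulin, and Hdac11 is the sole class IV enzyme. Among the methyltransferases, Dnmt1 copies CpG methylation onto newly made DNA, while Dnmt3a and Dnmt3b set new methylation. In the adult hippocampus these enzymes are studied for their part in memory, seizure-related gene programs and the control of newborn granule neurons.

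Each array carried 2 rats of the same group, one labelled Cy3 and the other Cy5, and the 4 arrays lay on a single slide. Nothing in the records ties the rats to litters or batches. The rats had 32381 to 38553 valid spots in COS and 30690 to 35352 in CES, valid meaning a foreground of 2 or more times the local background. Levels are given as log2 of the background-subtracted signal divided by the median valid spot of the rat's own channel. On this scale the median of all 20787 genes tested was itself 0.25 lower in CES than in COS. With the median taken over the spots valid in all rats instead, it was 0.14 higher in CES. For that reason each member's difference is also set against this all-gene median. Among the marker genes of dentate granule neurons, Prox1, the defining transcription factor, was not well above background in any rat.

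Of the 10 members, 5 were lower in CES by limma with Benjamini-Hochberg adjustment (Hdac1, Hdac2, Hdac5, Dnmt1 and Dnmt3b) and 0 were higher. Over all genes, 28.6% were called lower and 5.74% were called higher. The unadjusted p was below 0.05 for 6 members, the sixth being Hdac11, which lay on the higher side. The median difference of the members was -0.49 on the log2 scale against -0.25 for all genes. The groups did not overlap in 2 members, both lower in CES, as in 19.7% of all genes, and in 0 members that were higher, against 1.55% of all genes. All 7 members with a lower CES mean were lower within the Cy3 rats and within the Cy5 rats.

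**Figure D1:**
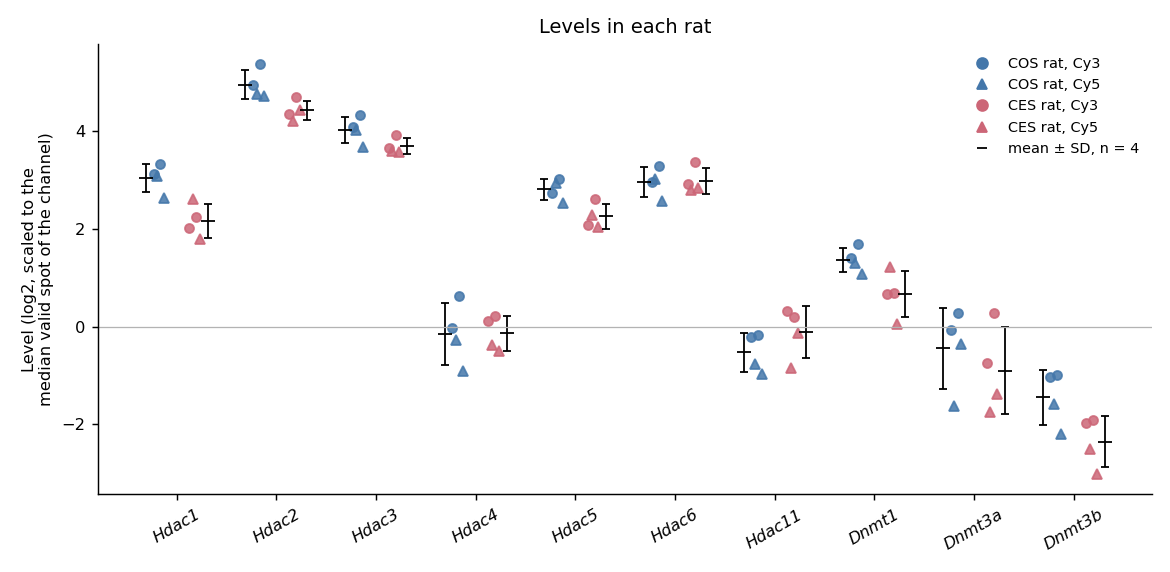
Log2 level of each member in each rat, scaled to the median valid spot of the rat's channel, with COS in blue, CES in red, circles for Cy3 and triangles for Cy5. Black bars are the mean ± SD of 4 rats. On this scale Hdac1 and Hdac2 are the members whose COS and CES rats do not overlap, while relative to the all-gene median both overlap. Levels of different genes cannot be set against each other because each rests on its own probes.

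Hdac1, a class I enzyme, was called lower in CES. Its log2 level was 3.12, 3.09, 3.34 and 2.64 in COS rats 1 to 4 and 2.01, 2.61, 2.24 and 1.80 in CES rats 1 to 4. Every CES rat was below every COS rat, although CES2 came within 0.03 of COS4. Hdac1 was thus 1.84-fold lower in CES (difference -0.88 ± 0.22 SE, n = 4 rats per group, limma adjusted p = 0.0145). Relative to the all-gene median the difference was -0.62. The value rests on 1 probe, well above background in all rats, at chr5:148673926-148674287 (rn4, minus strand). It crosses an exon junction of the transcript, so genomic DNA would not match it unbroken. Its sequence is shown, 5′ to 3′ as are all below, because the Hdac1 value rests on it alone.
Hdac1 probe: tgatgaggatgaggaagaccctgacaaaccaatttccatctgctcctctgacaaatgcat

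Hdac2, the close paralog of Hdac1 with which it forms the catalytic pair of several corepressor complexes, was also called lower. Its log2 level was 4.96, 4.76, 5.37 and 4.73 in the COS rats and 4.37, 4.22, 4.70 and 4.44 in the CES rats. The highest CES rat, CES3, lay 0.03 below the lowest COS rat. The fall was 1.44-fold (difference -0.53 ± 0.17 SE, limma adjusted p = 0.0393), or -0.27 relative to the all-gene median. Both of its probes were well above background in all rats and gave close differences. The brighter one, at chr20:41186032-41186091, differed by -0.53 and passed the test (adjusted p = 0.0390), and the one at chr20:41170996-41171055 differed by -0.50 and did not (adjusted p = 0.127). Both lie on the plus strand of rn4.

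Hdac3, the catalytic subunit of the NCoR and SMRT complexes, did not pass the test as a gene. Its log2 level was 4.09, 4.03, 4.33 and 3.68 in COS and 3.67, 3.60, 3.93 and 3.58 in CES. The ranges overlapped, and the difference was -0.34 ± 0.17 (SE, limma adjusted p = 0.141), or -0.08 relative to the all-gene median. Its 2 probes did not move together. The probe that begins at base 1010 of the transcript, across an exon junction, was 0.20 higher in CES (adjusted p = 0.402). The probe that begins at base 1487, within 1 exon, was 0.52 lower (adjusted p = 0.0377). The log2 ratio of the second to the first does not depend on how a rat is scaled. It was 1.69, 1.71, 2.14 and 2.05 in the COS rats and 1.09, 1.17, 1.26 and 1.18 in the CES rats. Every CES rat was therefore below every COS rat, by 0.72 ± 0.12 (SE) on average (exact permutation test over rats, two-sided, p = 0.0286, the smallest that 4 against 4 allows). This ratio was chosen after both probes had been seen to differ, so the p is a description.

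**Figure D2:**
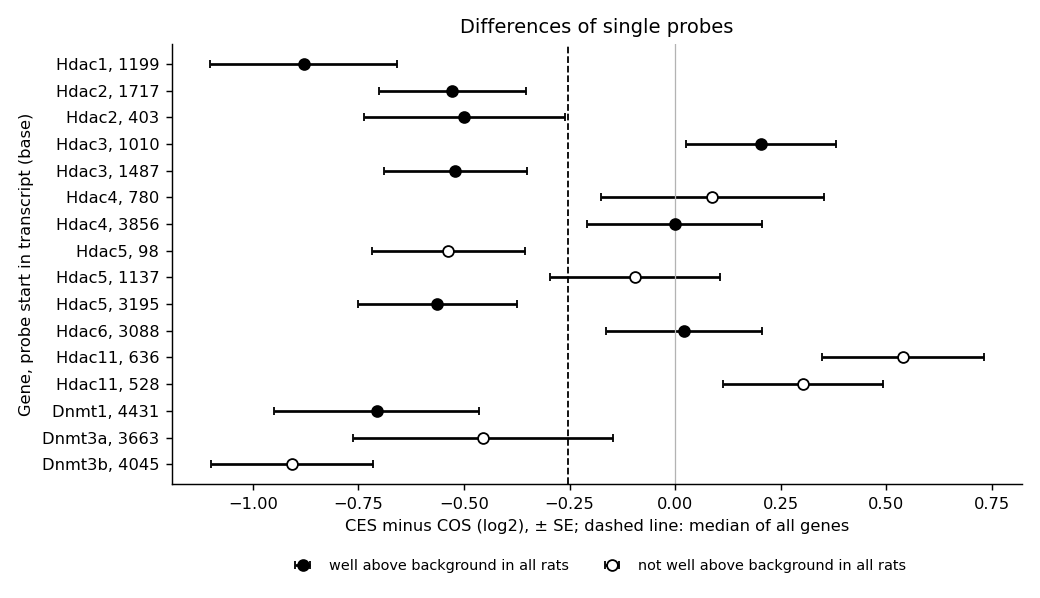
Difference of CES from COS (log2), ± SE, for each of the 16 member probes that were valid in all rats, labelled by gene and by the base of its own transcript record at which the probe begins. Filled points were well above background in all 8 rats, open points were not, and the dashed line marks the median of all genes. The Hdac3 probes lie on opposite sides of 0 and the Hdac2 and Hdac11 probes lie on the same side.

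Of the class IIa enzymes, Hdac5 was called lower and Hdac4 was not, and their log2 ratio did not differ past an exact two-sided permutation test between the groups (p = 0.143). Hdac5, whose export from the nucleus is triggered by neuronal activity, had a log2 level of 2.73, 2.95, 3.03 and 2.54 in COS and of 2.09, 2.28, 2.62 and 2.05 in CES. CES3 lay above COS4, and the other CES rats lay below all COS rats. Hdac5 fell 1.47-fold (difference -0.55 ± 0.19 SE, limma adjusted p = 0.0436), or by 0.30 relative to the all-gene median. Hdac4 stood at -0.03, -0.27, 0.64 and -0.90 in the COS rats and at 0.12, -0.38, 0.23 and -0.50 in the CES rats. Its groups lay inside each other, with a difference of 0.01 ± 0.21 (SE, limma adjusted p = 0.982), or 0.26 relative to the all-gene median. Of the 2 Hdac4 probes, one was well above background in 0 of 4 COS and 2 of 4 CES rats, so the gene's value rests on the other, at chr9:91147638-91147697.

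Hdac5 has 3 probes, and the gene's level is carried by the brightest, at chr10:91267403-91267871 on the minus strand across an exon junction (difference -0.56, adjusted p = 0.0420). The other 2 were well above background in at most 2 rats of either group. They lie 1 base apart on rn4 but on opposite strands, and Hdac5 is on the minus strand by RefSeq, so 1 of them does not read the annotated Hdac5 transcript. The opposite-strand probe, at chr10:91277327-91277386, differed by -0.54 (adjusted p = 0.0422), and its minus-strand neighbour, at chr10:91277266-91277325, by -0.10 (adjusted p = 0.742). Without the opposite-strand probe the Hdac5 call stood (adjusted p = 0.0439). Both sequences are shown because their strands decide what they can read.
Hdac5 opposite-strand probe: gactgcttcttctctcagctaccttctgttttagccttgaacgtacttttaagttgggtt
Hdac5 minus-strand probe: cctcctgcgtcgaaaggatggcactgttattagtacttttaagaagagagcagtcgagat

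Hdac6, the tubulin deacetylase, had log2 levels of 2.96, 3.03, 3.30 and 2.57 in COS and of 2.92, 2.80, 3.38 and 2.84 in CES. The difference was 0.02 ± 0.18 (SE, limma adjusted p = 0.941), so Hdac6 sat 0.28 above the median of all genes. Relative to that median, each CES rat (2.35 to 2.59) was above each COS rat (1.90 to 2.25). Hdac6 and Hdac11 were the 2 members separated in that direction on this relative scale, Hdac11 barely so (-1.274 in CES2 against -1.277 in COS1), as were 17.5% of all genes, and 0 members were separated in the other direction, against 11.7% of all genes.

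Hdac11, which is abundant in brain and in particular in mature neurons, had the highest difference among the members. Its log2 level was -0.22, -0.76, -0.17 and -0.98 in COS and 0.33, -0.85, 0.20 and -0.12 in CES. CES1, CES3 and CES4 lay above all COS rats, and CES2 lay among them. The difference of 0.42 ± 0.19 (SE) did not pass the test (limma adjusted p = 0.110). It stood 0.67 above the median of all genes, higher than for 89.6% of them. Both probes were higher in CES, by 0.54 (adjusted p = 0.0507) and by 0.30 (adjusted p = 0.237), and each was well above background in 3 of 4 COS and 4 of 4 CES rats. Both cross exon junctions on the plus strand of rn4, at chr4:125338068-125340976 and chr4:125336493-125337503, and are printed in that order because this was the member with the highest difference, which both probes share in sign.
Hdac11 probe, downstream: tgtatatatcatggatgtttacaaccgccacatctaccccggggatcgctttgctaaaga
Hdac11 probe, upstream: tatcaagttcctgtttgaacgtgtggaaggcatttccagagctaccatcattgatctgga

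Of the DNA methyltransferases, 2 of 3 fell, against 28.6% of all genes. Dnmt1, the maintenance enzyme, had log2 levels of 1.40, 1.29, 1.69 and 1.09 in COS and of 0.67, 1.22, 0.69 and 0.06 in CES. CES2 lay inside the COS range and the other CES rats lay below it. Dnmt1 was 1.63-fold lower in CES (difference -0.71 ± 0.24 SE, limma adjusted p = 0.0461), or lower by 0.45 relative to the all-gene median. The value comes from 1 of its 2 probes, at chr8:19929047-19929106 on the minus strand of rn4, since the other was valid in 7 of 8 rats. It is shown for that reason.
Dnmt1 probe: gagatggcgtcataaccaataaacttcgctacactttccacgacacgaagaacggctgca

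Dnmt3b, a de novo methyltransferase best known from early development, had log2 levels of -1.03, -1.59, -0.99 and -2.20 in COS and of -1.97, -2.52, -1.93 and -3.02 in CES. COS4 was the single COS rat within the CES range. The fall of 0.91 ± 0.19 (SE, 1.88-fold, limma adjusted p = 0.00745) lay 0.65 below the all-gene median. The single probe, at chr3:144069022-144069081, was dim, with a foreground 2.10 to 6.46 times the background, and exceeded the scanner software's detection test in 3 of 4 COS and 2 of 4 CES rats, so its fold rests in part on signals near background. With normexp background correction the difference was -0.37 and not called. Dnmt3a, the de novo enzyme of mature neurons, had log2 levels of -0.06, -1.64, 0.27 and -0.36 in COS and of -0.75, -1.76, 0.29 and -1.39 in CES. The ranges nearly coincided, and the difference of -0.46 ± 0.31 (SE) did not pass the test (limma adjusted p = 0.277). Relative to the all-gene median the difference of Dnmt3a was -0.20. Its dyes differed more than its groups, Cy5 minus Cy3 being -1.10 in COS and -1.34 in CES. The dyes also differed more than the groups in Hdac4 (-0.89 in COS and -0.61 in CES), Hdac6 (-0.33 and -0.33) and Hdac11 (-0.68 and -0.75). In Dnmt3b the dye difference (-0.89 and -0.82) was nearly as large as the group difference.

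Ratios between members of a rat do not depend on its scaling, and 3 pairs were compared over rats. The log2 ratio of Hdac1 to Hdac2 was -1.91 ± 0.19 (SD, n = 4) in COS and -2.26 ± 0.45 in CES. The groups overlapped, CES2 having the highest ratio of all rats, and the difference of -0.35 ± 0.24 (SE) gave p = 0.200 by an exact two-sided permutation test. The ratio of Hdac4 to Hdac5 was -2.96 ± 0.47 in COS and -2.39 ± 0.30 in CES, a difference of 0.56 ± 0.28 (exact permutation p = 0.143). The ratio of Dnmt1 to Dnmt3a was 1.81 ± 0.75 in COS and 1.56 ± 1.06 in CES, a difference of -0.25 ± 0.65 (exact permutation p = 0.857). After Benjamini-Hochberg adjustment over the 3 pairs the exact permutation p was 0.300, 0.300 and 0.857. None of the 3 pairs was shown to change its proportion, and the smallest p that 4 against 4 allows is 0.0286. The permutations had no dye or array term. In each group the ratio of Hdac4 to Hdac5 was lower in the Cy5 rats (-3.23 and -3.44 in COS) than in the Cy3 rats (-2.77 and -2.39 in COS). A dye difference of this kind widens the spread within groups, so these p-values do not show that the proportions were unchanged.

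The calls of the members depended on the scaling. With the median taken over the spots valid in all rats, 1 of 10 members was called lower (Dnmt3b, difference -0.51, limma adjusted p = 0.0403), against 8.55% of all genes. Under that scaling 1 member was called higher (Hdac11, 0.82, limma adjusted p = 0.0477), against 16.3% of all genes. Hdac1 then differed by -0.48 (adjusted p = 0.0910), Dnmt1 by -0.31, Hdac5 by -0.16 and Hdac2 by -0.13, and Hdac3 changed sign to 0.06. Relative to the all-gene median, Hdac1, Hdac2, Hdac3, Hdac5 and Dnmt1 lay below it under all 24 settings tried, and Dnmt3b under all 22 that could measure it. The settings include the main one and each fit that left out 1 rat. Those that change the test alone, and the scaling over spots valid in all rats, repeat the main relative difference by construction. The fit without the opposite-strand Hdac5 probe can change Hdac5 alone. Hdac4 and Hdac6 lay above it under all 24 settings and Hdac11 under all 23 that could measure it. Dnmt3a lay below it under 22 of 23 settings and turned to 0.15 above it without COS4. The relative difference ran from -0.81 to -0.47 for Hdac1, from -0.70 to -0.20 for Dnmt1 and from 0.39 to 0.91 for Hdac11. The widest range was that of Dnmt3b, from -1.01 with the processed signal to -0.23 with normexp. Fitted probe by probe, 7 of the 16 member probes were called lower, in 6 genes, against 29.4% of all probes, and 0 were called higher. Among these 7 was the opposite-strand Hdac5 probe, which does not read the annotated transcript.

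**Figure D3:**
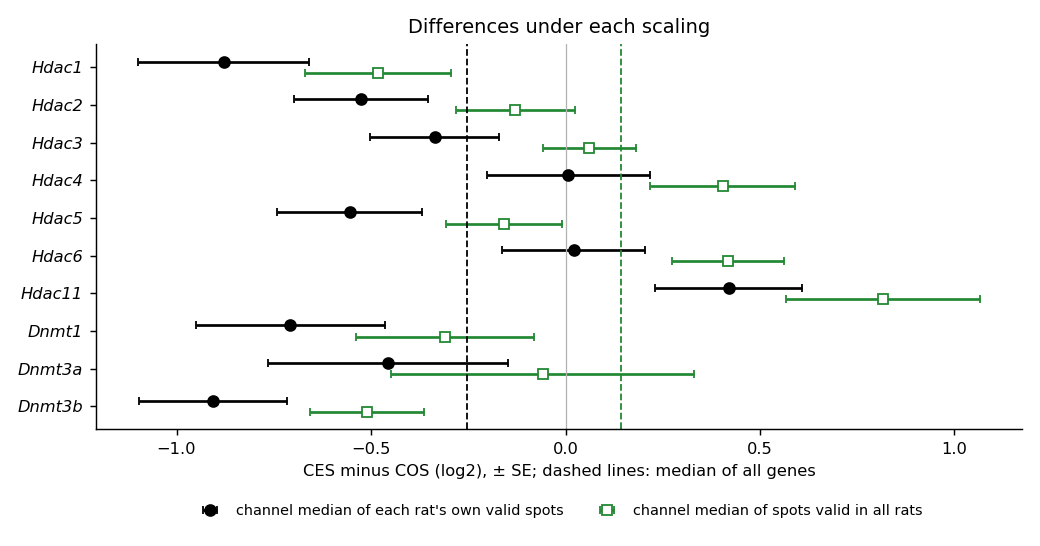
Difference of CES from COS (log2), ± SE from limma, for each member under the scaling to each rat's own valid spots (black circles) and to the spots valid in all rats (green squares). The dashed lines mark the median of all genes under each, -0.25 and 0.14. Every member moves by the same amount between the scalings, so Dnmt3b and Hdac1 stay on the left and Hdac11 on the right of the dashed line.

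Single rats also decided calls. Without COS3, the COS rat with the highest level of each called member, 0 of 10 members were called by limma, with 2 at an unadjusted p below 0.05, and 5.49% of all genes were called lower. The differences were then -0.77 for Hdac1 (adjusted p = 0.100), -0.87 for Dnmt3b (0.0592), -0.42 for Hdac2 (0.158), -0.49 for Hdac5 (0.188) and -0.61 for Dnmt1 (0.198). Without CES1, when 12.3% of all genes were called lower, Dnmt3b was the 1 member called (adjusted p = 0.0387), and Hdac1 was not (adjusted p = 0.0701). Without COS1, COS2 or COS4 the calls of Hdac1 and Dnmt3b stood and those of Hdac2 (adjusted p 0.0700 to 0.0755), Hdac5 (0.0676 to 0.118) and Dnmt1 (0.0794 to 0.0980) did not. Without CES3 or CES4, Dnmt1 was the 1 call lost (adjusted p = 0.0642 and 0.0550). Without CES2, Hdac1 (adjusted p = 0.00108) and Dnmt1 (0.00155) had lower p-values, Hdac2 was not called (0.0547), and Hdac11 was called higher (0.0214).

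In Hdac1, Dnmt1 and Hdac11, chosen after their values were seen, CES2 lay nearer to the COS rats than to the other CES rats. Relative to each rat's all-gene median, Hdac1 stood at 2.06 to 2.31 in the COS rats, at 2.19 in CES2 and at 1.43 to 1.56 in the other CES rats. Dnmt1 stood at 0.34 to 0.60 in COS, at 0.79 in CES2 and at -0.19 to 0.09 in the other CES rats. Hdac11 stood at -1.54 to -1.28 in COS, at -1.27 in CES2 and at -0.59 to -0.25 in the other CES rats. The arrangement was not general. Hdac6 stood at 2.38 in CES2 and at 2.35 to 2.59 in the other CES rats, and in Hdac2, Hdac3 and Dnmt3b CES2 lay within the range of the other CES rats. In Hdac5 CES2 was the highest CES rat (1.86 against 1.51 to 1.83). It was the lowest in Hdac4 (-0.80 against -0.75 to -0.46) and in Dnmt3a (-2.18 against -1.64 to -0.50). In each of Hdac4, Hdac5 and Dnmt3a it lay within the COS range. On the levels scaled to each rat's own valid spots, Dixon's test for a sample far from the rest of its group marked none of the 20 member groups. That result does not cover the levels relative to the all-gene median given here, so it does not decide whether CES2 is an outlier on them.

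Markers of dividing cells, a list in which Dnmt1 is not included, followed a like arrangement. Of the 7 measured (Mki67 was not found by name), 6 were called lower in CES and 0 higher, with a median difference of -1.36, against 28.6% and 5.74% of all genes. With the scaling over spots valid in all rats 1 of the 7 was called lower, against 8.55% of all genes. With the scaling to each rat's own valid spots the groups did not overlap in 2 of the 7, both lower in CES, as in 19.7% of all genes. The log2 of their summed level, in which bright genes weigh most, was 3.68 to 4.03 in COS relative to the all-gene median. It was 3.90 in CES2 and 2.33 to 2.70 in the other CES rats. The part of this list in the Dnmt1 and Hdac1 values was not tested. Granule neuron markers were separated in their sum. The log2 of their summed level relative to the all-gene median was 4.68 to 4.98 in COS and 5.27 to 5.998 in CES. Single genes of this list did not all follow the sum. Of the 7 measured, 3 were called lower and 2 higher, against 28.6% and 5.74% of all genes. The differences of 4 lay below the all-gene median. The median difference of the list relative to that median was -0.02. Tdo2, 1 of the 7, was not well above background in any rat. The groups did not overlap in 1 gene that was lower and 0 that were higher, against 19.7% and 1.55% of all genes. With the scaling over spots valid in all rats 0 of these 7 were called lower and 2 higher, against 8.55% and 16.3% of all genes. Sums for interneurons and hilar cells (7.39 to 8.33 in COS and 6.19 to 7.75 in CES), astrocytes (6.28 to 7.05 and 6.70 to 7.16), microglia (4.31 to 4.62 and 4.08 to 4.46), oligodendrocytes (6.77 to 8.07 and 7.86 to 8.59) and endothelium (4.35 to 4.65 and 4.03 to 4.83) overlapped between the groups. Choroid plexus markers ran from 3.26 to 8.49 in COS and from 3.23 to 7.34 in CES, so these levels differed widely between rats of both groups. Of the defining markers, Pecam1 of endothelium and Kl of choroid plexus had no spot valid in all rats. The part of these lists in the members' values was not tested.

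**Figure D4:**
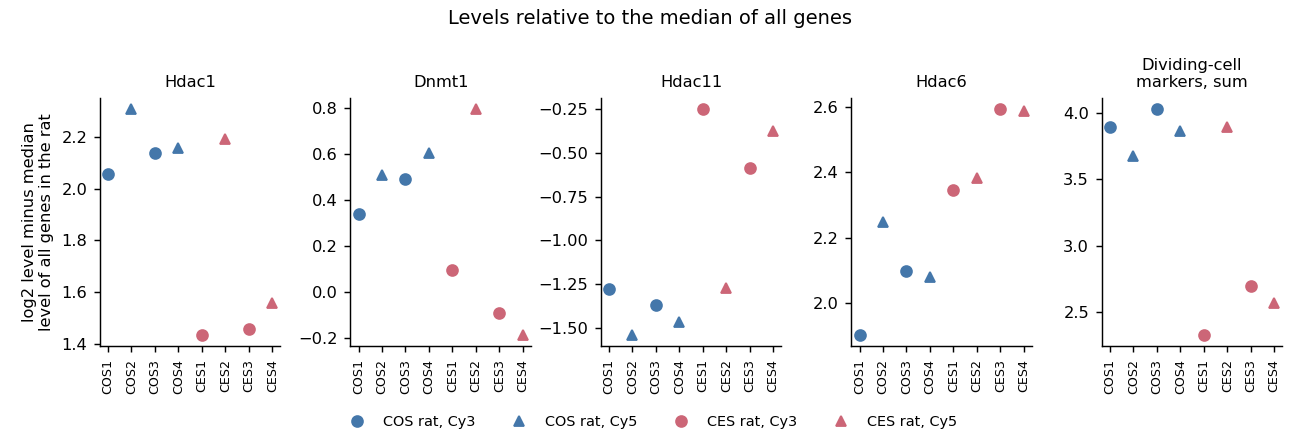
Log2 level of Hdac1, Dnmt1, Hdac11 and Hdac6, and log2 of the summed level of the dividing-cell markers, in each rat, minus the median level of all genes in that rat. COS is blue, CES is red, circles are Cy3 and triangles Cy5. CES2 lies nearer to the COS rats than to the other CES rats in Hdac1, Dnmt1, Hdac11 and the dividing-cell markers, and among the CES rats in Hdac6.

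Genes that work with or against the members were read from 5 lists, of which 64 genes had a value in all rats. In CES, 24 of the 64 (37.5%) were called lower and 1 higher by limma, where 28.6% and 5.74% of all genes were. With the scaling over spots valid in all rats the counts were 4 lower and 7 higher, where 8.55% and 16.3% of all genes were, so the direction of these counts rests on the scaling. Among the other deacetylases, 3 of 9 (33.3%) fell and 0 rose, a share near the 28.6% of all genes. They were Hdac7, the class IIa enzyme best known from endothelium and thymus (-0.92 ± 0.21 SE, adjusted p = 0.0106), the nucleolar sirtuin Sirt7 (-0.91 ± 0.16, adjusted p = 0.00463) and the chromatin-bound sirtuin Sirt6 (-0.62 ± 0.17, adjusted p = 0.0207). In each of these 3 genes the CES rats lay below all COS rats. With the scaling over spots valid in all rats Sirt7 was still called (adjusted p = 0.0380), while Hdac7 (0.0778) and Sirt6 (0.199) were not.

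Of the corepressor subunits through which class I enzymes act, 9 of 24 (37.5%) fell and 0 rose, against 28.6% and 5.74% of all genes. With the scaling over spots valid in all rats 1 was called lower (Mbd3) and 2 higher (Ncor1 and Tbl1x), against 8.55% and 16.3% of all genes. Mbd3, a NuRD subunit, fell from a log2 level of 4.95 ± 0.24 (SD) in COS to 3.99 ± 0.20 in CES (adjusted p = 0.00403). Mta2, another NuRD subunit, fell by 0.88 (adjusted p = 0.00734), Gatad2a of the same complex by 0.77 (adjusted p = 0.0266) and Gps2 of the NCoR complex by 0.76 (adjusted p = 0.0116). Other subunits of these complexes were not called, among them Chd4 (-0.26) and Rbbp4 (-0.10) of NuRD and Ncor1 (0.24) of NCoR. The median difference over the list was -0.42.

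Among the histone acetyltransferases, which add the mark that deacetylases remove, 5 of 9 fell and 0 rose, with a median of -0.46, against 28.6% and 5.74% of all genes. Hat1, which acetylates newly made histone H4, fell by 0.99 ± 0.21 (SE, adjusted p = 0.00831). Kat7 fell by 0.80 (adjusted p = 0.0186), Kat5 by 0.65 (adjusted p = 0.0182) and the nuclear receptor coactivator Ncoa3 by 0.60 (adjusted p = 0.0208). Enzymes on both sides of the acetylation balance were thus called lower in CES under the scaling to each rat's own valid spots. Under the scaling over spots valid in all rats, 0 acetyltransferases were called in either direction.

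Of the genes of DNA methylation and its readout, 6 of 10 fell and 1 rose, with a median of -0.63, against 28.6% and 5.74% of all genes. Mbd2, a reader of methylated CpG, fell from a log2 level of 5.46 ± 0.16 (SD) in COS to 4.24 ± 0.17 in CES (difference -1.23 ± 0.16 SE, adjusted p = 0.00313) and was still called with the scaling over spots valid in all rats (-0.83, adjusted p = 0.0176). Hells, a remodeller that assists maintenance methylation, fell by 0.95 (adjusted p = 0.0404), the reader Mbd1 by 0.85 (adjusted p = 0.0212) and the tRNA methyltransferase Trdmt1, once named Dnmt2, by 0.73 (adjusted p = 0.0367). Hells was well above background in 4 of 4 COS and 2 of 4 CES rats, Mbd1 in 4 and 3, and Trdmt1 in 3 and 2. With the scaling over spots valid in all rats Hells (adjusted p = 0.259), Mbd1 (0.172), Trdmt1 (0.240) and the other 2 genes that fell were no longer called. Tet1, which oxidizes methylcytosine, was the 1 gene called higher (adjusted p = 0.00917), but its signal exceeded the detection test of the scanner software in 0 of 4 COS and 2 of 4 CES rats, and no fold is given. Uhrf1, the partner that brings Dnmt1 to replicated DNA, had no spot valid in all rats.

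Of the kinases, 14-3-3 proteins and MEF2 factors that meet the class IIa enzymes, 1 of 12 fell and 0 rose, with a median of 0.02, against 28.6% and 5.74% of all genes. The one was Sik1, a kinase induced by activity that phosphorylates class IIa deacetylases, which fell from 2.90 ± 0.53 (SD) in COS to 0.93 ± 0.68 in CES (difference -1.98 ± 0.36 SE, adjusted p = 0.00482). No CES rat reached the lowest COS rat. Sik1 was also called with the scaling over spots valid in all rats (-1.58, adjusted p = 0.0279), under which 4 others of this list were called higher, against 16.3% of all genes.

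**Figure D5:**
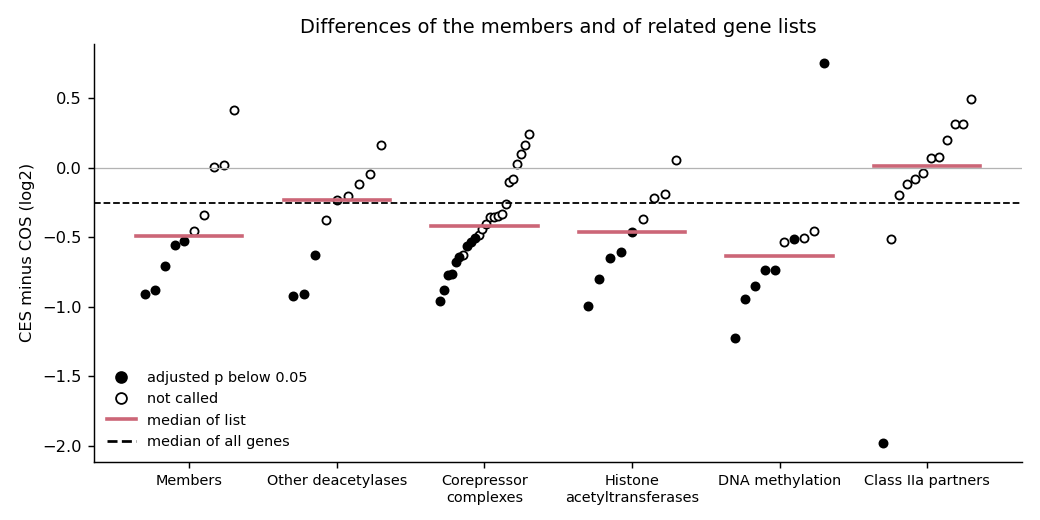
Difference of CES from COS (log2) for the members and for each related list, one point per gene ordered by value, filled where the limma adjusted p was below 0.05. Red bars are the list medians and the dashed line is the median of all genes, -0.25. The DNA methylation list has the lowest median, -0.63, with Tet1 alone above 0, and the class IIa partners have a median of 0.02 with Sik1 at -1.98.

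Promoter sequence from RefSeq (GRCr8) was available for 8 members, not including Hdac11 and Dnmt3b, and the 250 bases upstream of the start were read. They held 9 (Dnmt1) to 23 (Hdac1 and Hdac2) CpG dinucleotides, against a median of 5 over 33469 promoters. The GC box GGGCGG, searched on both strands, was found in 7 of the 8, against 30.5% of all promoters, and each match contains a CpG. The core site GGTCA of estrogen receptor binding, on both strands, was found in 3 of the 8 (Hdac3, Hdac5 and Dnmt3a), against 35.4% of all. The full palindromic element GGTCANNNTGACC was found in none of the 8 windows, against 0.0239% of all. The windows of Hdac1 (chr5:147165388-147165637, minus strand) and Hdac2 (chr20:42102877-42103126, plus strand) are shown 5′ to 3′, with CpG in capitals. They are those of the paralogs whose groups did not overlap on levels scaled to each rat's own valid spots. With the scaling over spots valid in all rats, the groups of both overlapped.
Hdac1 promoter: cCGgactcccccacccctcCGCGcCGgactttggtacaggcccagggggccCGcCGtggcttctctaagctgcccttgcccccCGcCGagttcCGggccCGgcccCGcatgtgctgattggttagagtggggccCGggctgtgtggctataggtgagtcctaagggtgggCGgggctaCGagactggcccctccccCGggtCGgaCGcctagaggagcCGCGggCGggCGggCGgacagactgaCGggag
Hdac2 promoter: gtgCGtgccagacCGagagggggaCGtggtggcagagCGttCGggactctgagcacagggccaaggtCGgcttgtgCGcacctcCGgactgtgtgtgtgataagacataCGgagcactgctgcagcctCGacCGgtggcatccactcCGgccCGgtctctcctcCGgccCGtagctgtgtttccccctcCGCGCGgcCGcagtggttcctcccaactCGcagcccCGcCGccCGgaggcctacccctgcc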

How the data were processed

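Dentate gyrus RNA of 4 COS and 4 CES rats was measured on 4 Agilent arrays in a design that co-hybridizes differently labelled rats of 1 group. The study's methods name the arrays as Rat GE 4 x 44k v3, and that version was not checked against the files. Per the file headers, the scanner files hold foreground and background intensity per spot for Cy3 and Cy5, extracted by the authors with Agilent Feature Extraction 10.7.3.1 before normalization, and a processed intensity. A table of log2 values was also deposited, each equal to the log2 of median signal minus background of its channel less a constant. Their iterative renormalization is not in these files.

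Of 43379 non-control spots, 26294 were valid in all rats (foreground at least 2 times background, as in the methods) and not marked as outliers by the scanner software, which marked 1593. No spot was saturated. Background-subtracted mean signals were scaled to the median valid spot of their channel, averaged over a gene's spots (names as in the files) and taken to log2. For 12 of the 17 member probes the transcript matched a RefSeq gene in the reference table (GRCr8), with the same symbol in all 12. Positions are those of rn4 in the files.

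The difference of CES from COS was tested with limma 3.58.1 under R 4.3.3, two-sided, with dye as a term and array as a random block (duplicateCorrelation, statmod 1.5.0) and Benjamini-Hochberg adjustment over all genes at 0.05. Each array holds 1 group, so array and group can be separated only as a random block. The estimated array correlation was -0.01 in the main fit, so the block had little effect on the calls there. It was 0.26 with scaling over spots valid in all rats, and ran from -0.51 without the dye term to 0.56 with normexp. The number of arrays limits the precision (median SE 0.20, log2), and p-values measure the spread between these rats. Replicate numbers coincide with dyes. Deviations of same-numbered rats from their group means correlated at 0.21 to 0.35, and at -0.28 to 0.09 with the dye removed, so beyond the dye, which is in the fit, the numbers were not taken as pairs. Ratios were compared by exact permutation tests without a dye or array term. The fit was tested on simulated data. Members and lists were chosen with earlier results of these data known. All members are named, and of each related list the called genes, at most the 4 largest in each direction. Alternatives covered background correction, scaling, filters, terms of the fit, probe choice, the deposited table, the methods' t-test and leaving out each rat. The fit without the opposite-strand Hdac5 probe and the Hdac3 probe ratio were added after seeing the data. Tables were handled with pandas 2.3.3 and numpy 2.4.6 under Python 3.11.15, the permutations run with scipy 1.17.1 and the plots drawn with matplotlib 3.10.9.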

Additional observations from a re-analysis of the deposited data

How the results depend on the processing

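The direction of Hdac1, Hdac2, Hdac5, Hdac11, Dnmt1, Dnmt3a and Dnmt3b was the same under every alternative that measured them, while calls were not. Against 5 members called lower, the count was 0 with normexp and an offset of 50 (0 at an unadjusted p below 0.05), 3 with the processed signal, and 1 each with loess and Aquantile, quantile normalization, scaling over spots valid in all rats, no filter, foreground at least 3 times background (9 members tested) and the deposited log2 table. It was 0 when each spot needed a well-above-background mark in every rat (7 members tested, 0 at an unadjusted p below 0.05), 0 by the methods' t-test after adjustment (3 members at an unadjusted p below 0.05) and 0 to 4 when 1 rat was left out. In place of 0 members, 1 was called higher, Hdac11, with loess, with quantile normalization and with scaling over spots valid in all rats, and 0 to 1 when 1 rat was left out. The replicate block kept the count at 5 members lower and 0 higher, and gave 6041 genes lower and 1048 higher.

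For the 64 related genes (24 lower, 1 higher), the counts lower and higher were 1 and 0 with normexp, 5 and 7 with loess, 6 and 7 with quantile normalization, 4 and 7 with scaling over spots valid in all rats, 6 and 1 with no filter, 12 and 1 at 3 times background, 2 and 4 when well above background, 5 and 7 in the deposited table, 0 and 0 by the t-test, and 3 to 28 and 0 to 2 with 1 rat left out. For all genes (5943 lower, 1194 higher) they were 477 and 132 with normexp, 1938 and 2996 with loess, 2249 and 3018 with quantile normalization, 1778 and 3380 with scaling over spots valid in all rats, 2781 and 400 with no filter, 2805 and 1222 at 3 times background, 880 and 2138 when well above background, 1923 and 3210 in the deposited table, 0 and 0 by the t-test (5900 at an unadjusted p below 0.05), and 1141 to 6940 and 285 to 1805 with 1 rat left out. The other counts stayed within 1.5 times, and the cause of the changes was not tested.

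Differences that changed sign were all small. Hdac3 was 0.061 with scaling over spots valid in all rats, 0.11 when well above background and 0.020 in the deposited table. Hdac4 was -0.0025 with normexp, -0.0013 with the brightest probe and ran from -0.17 to 0.19 with 1 rat left out, turning without COS1, COS4 and CES2. Hdac6 was -0.095 with the processed signal and ran from -0.081 to 0.11 with 1 rat left out, turning without COS1, COS4, CES3 and CES4. The ratio of Dnmt1 to Dnmt3a changed sign without COS2 and without CES3, with a range of -0.72 to 0.13 when 1 rat was left out, where an exact permutation test of 3 against 4 cannot go below 0.0571. Dim probes limit Dnmt3b, Dnmt3a and Hdac11, which the stricter filters could not measure in part.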
